A study of Homo sapiens with 8 samples.

Results

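The MYC, MAX and MXD network is a family of basic helix-loop-helix leucine zipper proteins built around a shared partner, MAX. MYC, MYCN and MYCL pair with MAX, bind E-box DNA and mostly raise transcription of genes for growth, ribosome production and division. MXD1, MXD3, MXD4, MXI1 and MNT pair with MAX on the same sites and bring in the SIN3 histone deacetylase complex, which lowers transcription, and MGA joins MAX in PRC1.6, a variant Polycomb complex known for silencing germline genes. MYCN drives many aggressive neuroblastomas, whereas SH-SY5Y is a neuroblastoma line known to carry no MYCN amplification and to express MYC.

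These 10 genes (MYC, MYCN, MYCL, MAX, MXD1, MXD3, MXD4, MXI1, MNT and MGA) were taken by their symbols, 10 of the 52719 genes for which transcript values could be summed. RNA of SH-SY5Y, a human cell line, was sequenced from cells treated for 7 days with 9-cis retinoic acid at 1 µM (differentiated, replicates 21 to 24) and from undifferentiated cells (replicates 17 to 20), 4 libraries each. The compound binds both retinoic acid receptors and retinoid X receptors, which act together as transcription factors. The treated cells all came from lane 8 of the sequencer, as did undifferentiated replicates 19 and 20, while undifferentiated replicates 17 and 18 came from lane 7. The labels give the undifferentiated cells no agent and no time in culture, so time in culture and treatment cannot be told apart. Nor do they say whether the libraries of a group are separate cultures, so a p-value here reflects the variation among 4 libraries, possibly technical only.

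Values are in TPM (transcript abundance scaled to the same sum in each library), which is corrected for transcript length, so levels of different genes can be set side by side. It keeps no depth, so the number of reads behind a value is unknown and counting error cannot be stated. Of the noradrenergic neuroblastoma markers checked, 11 of 12 were tested and summed with the twelfth to 1494 to 1761 TPM in differentiated libraries and to 2373 to 2469 TPM in undifferentiated libraries. Of those tested 2 were called higher and 8 lower, and TH, the first enzyme of dopamine synthesis, averaged 0.013 TPM in differentiated and 0.0929 TPM in undifferentiated libraries and was not tested. Mesenchymal or fibroblast markers summed to 1294 to 1400 TPM in differentiated and 429 to 477 TPM in undifferentiated libraries, with 7 of 10 tested called higher and 0 lower. Of this list TWIST1, LUM and DCN were not called, and PRRX1 and COL1A2 averaged under 1 TPM in both groups and were not tested. Schwann cell markers summed to 64.6 to 72.1 TPM in differentiated and 28.6 to 31.0 TPM in undifferentiated libraries, with the defining factors SOX10 and FOXD3 listed at 0 in every library. Epithelial markers summed to 13.7 to 18.3 TPM in differentiated and 2.31 to 3.75 TPM in undifferentiated libraries, of which KRT18 gave 12.1 TPM in differentiated and 0.262 TPM in undifferentiated cells and KRT5 was listed at 0. Blood and endothelial markers each summed to under 1 TPM. The part of these cell type markers in the results on the network was not tested. In these bulk libraries fewer cells of a type and less RNA per cell cannot be told apart.

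All 10 network genes had a mean of 1 TPM or more. With limma on log2(TPM+1) and Benjamini-Hochberg adjustment over all 17077 genes tested, 7 of the 10 were called at an adjusted p under 0.05, against 51.3% of all genes. MXD3, MXD4 and MNT were higher in differentiated cells, where 33.9% of all genes were called higher. MYC, MYCN, MYCL and MAX were lower, where 17.4% of all genes were called lower. The groups did not overlap for 5 of the 10 genes, against 49.6% of all genes. Over the protein-coding transcripts alone 8 of the 10 were called, against 64.3% of all genes so summed. Under median-of-ratios scaling and quantile normalization 7 and 8 network genes were called, against 53.2% and 54.3% of all genes, and MNT was the 1 among them called higher. With lane as a term 5 were called, against 40.9% of all genes. The share of network genes called was thus not far from that of genes at large in these fits. In size of change MYC ranked 12 and MYCN 743 from the most lowered of the 17077 genes.

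Promoters of 3 repressor genes are shown here because their transcripts carry the changes described further on: the separate starts of MXI1, whose transcripts differed in their change, and the RefSeq windows of MXD4 and MNT, which also hold the GENCODE 29 starts of their rising coding transcripts. Sequences are from RefSeq on GRCh38.p14, 5′ to 3′ on the strand of the gene, and run from 250 bases before to 50 after an annotated start. Capitals mark CACGTG, the E-box that MYC, MXD and MNT pairs with MAX are known to bind, which reads the same on both strands.
MXI1, start of MXI1-202, chr10:110207355-110207654, plus strand: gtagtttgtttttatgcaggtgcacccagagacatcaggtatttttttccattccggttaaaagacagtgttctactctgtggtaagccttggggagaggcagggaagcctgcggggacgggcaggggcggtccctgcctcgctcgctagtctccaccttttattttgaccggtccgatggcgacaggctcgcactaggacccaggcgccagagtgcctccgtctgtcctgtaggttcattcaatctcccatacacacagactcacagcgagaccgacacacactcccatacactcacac
MXI1, start of MXI1-203, chr10:110209981-110210280, plus strand: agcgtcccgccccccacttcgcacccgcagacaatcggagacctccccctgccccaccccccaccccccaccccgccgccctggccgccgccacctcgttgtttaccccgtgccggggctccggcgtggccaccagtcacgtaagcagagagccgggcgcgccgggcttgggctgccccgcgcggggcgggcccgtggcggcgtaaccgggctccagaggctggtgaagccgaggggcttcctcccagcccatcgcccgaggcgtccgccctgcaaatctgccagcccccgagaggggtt
MXI1, start of MXI1-201, chr10:110225746-110226045, plus strand: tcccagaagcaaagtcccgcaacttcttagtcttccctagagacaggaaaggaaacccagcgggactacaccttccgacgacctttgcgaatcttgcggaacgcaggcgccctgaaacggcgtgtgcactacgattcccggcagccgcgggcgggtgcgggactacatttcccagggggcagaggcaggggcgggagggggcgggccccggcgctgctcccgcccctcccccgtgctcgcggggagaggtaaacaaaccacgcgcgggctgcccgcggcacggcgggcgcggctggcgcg
MXD4, chr4:2262060-2262359, minus strand: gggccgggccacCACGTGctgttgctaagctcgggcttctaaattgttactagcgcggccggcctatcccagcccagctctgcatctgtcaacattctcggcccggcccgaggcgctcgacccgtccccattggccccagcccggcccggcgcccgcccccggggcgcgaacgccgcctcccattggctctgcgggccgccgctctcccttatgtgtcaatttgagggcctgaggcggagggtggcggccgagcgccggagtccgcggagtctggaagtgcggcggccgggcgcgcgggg
MNT, chr17:2401011-2401310, minus strand: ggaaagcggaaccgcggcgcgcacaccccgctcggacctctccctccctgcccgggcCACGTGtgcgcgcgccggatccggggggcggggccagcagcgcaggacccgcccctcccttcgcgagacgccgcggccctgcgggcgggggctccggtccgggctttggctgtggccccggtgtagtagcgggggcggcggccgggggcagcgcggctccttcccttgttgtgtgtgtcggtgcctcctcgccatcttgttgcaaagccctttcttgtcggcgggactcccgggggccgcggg
CACGTG began 238 bases before the RefSeq start of MXD4 and 193 bases before that of MNT. Neither start is that of the coding transcript that rose: MXD4-201 starts 185 bases and MNT-201 58 bases upstream of it, so the letters begin 53 bases before MXD4-201 and 135 bases before MNT-201. None of the 3 MXI1 windows held these letters. Of 14 windows over 9 network genes, with MYC not analysed here for this motif, those of MXD4 and MNT were the 2 that held it, and among all 35116 promoter windows of this length 2548 (7.26%) did. The windows of MXD3, MYCN and MYCL, genes that were also called, are not shown and held no match. A match describes the letters only.

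**Figure D1:**
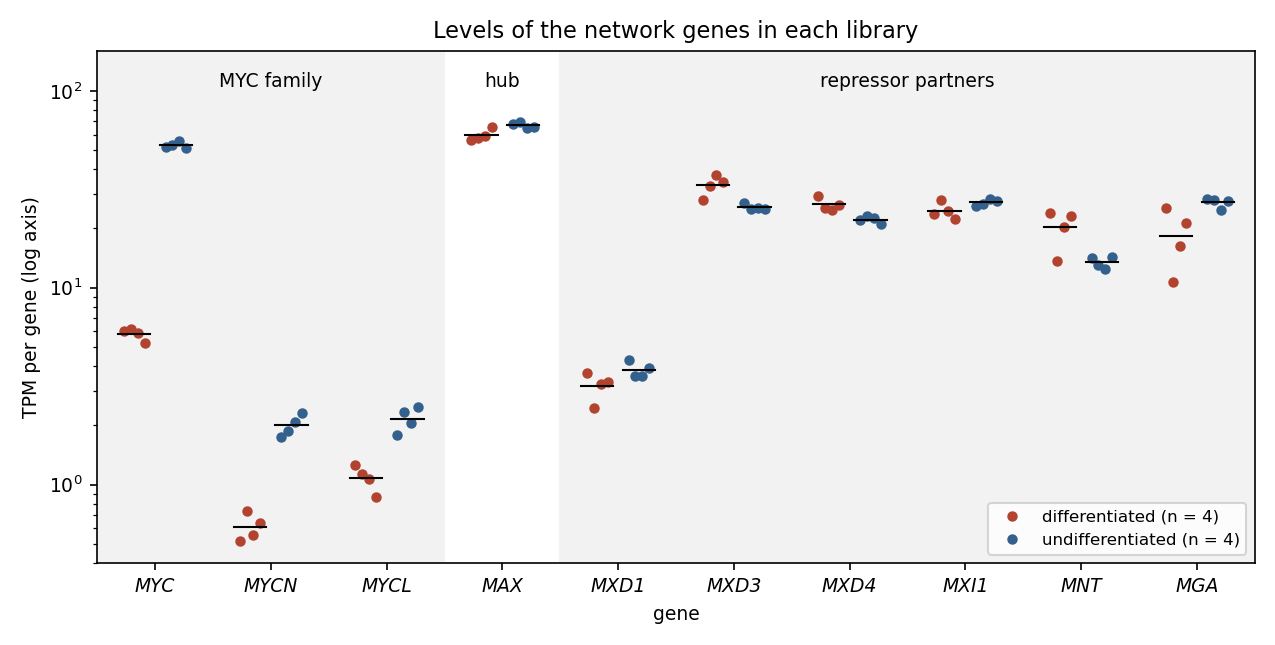
TPM of each network gene (log axis) in every library, with differentiated libraries left of undifferentiated ones and a bar at each mean. MYC sits between 5.21 and 6.16 TPM in differentiated libraries and between 51.1 and 55.5 TPM in undifferentiated ones. MAX and the repressor genes other than MXD1 lie between 10.7 and 69.5 TPM in every library.

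MYC carried most MYC-family RNA in these cells and was the network gene with the largest change. MYC had 6.0, 6.16, 5.90 and 5.21 TPM in differentiated libraries, against 51.9, 53.3, 55.5 and 51.1 TPM in undifferentiated libraries. Every differentiated library lay far below every undifferentiated one. The means were 5.82 ± 0.417 TPM in differentiated and 53.0 ± 1.94 TPM in undifferentiated libraries (SD, n = 4 each), so that undifferentiated cells had 9.10 times the level, and MYC fell by 2.99 on the log2 scale (SE 0.060, 95% interval -3.12 to -2.85, limma adjusted p = 1.17e-08). An exact two-sided permutation test gave p = 0.0286, the smallest that 4 against 4 libraries allow. The call held in all 22 alternatives run with limma. Both main coding transcripts fell (limma adjusted p = 1.27e-07 and 1.67e-06). MYC-202 averaged 3.55 ± 0.359 TPM in differentiated and 33.6 ± 0.889 TPM in undifferentiated libraries, and MYC-205 averaged 2.21 ± 0.307 TPM in differentiated and 17.1 ± 1.77 TPM in undifferentiated libraries. MYC-202 made up 61.0% of MYC RNA in differentiated and 63.6% in undifferentiated cells, a difference not called (adjusted p = 0.600, limma on shares). The minor transcript MYC-204 was listed at 0 in all differentiated libraries and averaged 0.731 TPM in undifferentiated ones.

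MYCN and MYCL, the relatives of MYC known from neuroblastoma and from small-cell lung cancer, were scarce in both states and lower after differentiation. MYCN had 0.515, 0.734, 0.553 and 0.641 TPM in differentiated libraries, against 1.75, 1.88, 2.09 and 2.31 TPM in undifferentiated libraries. MYCL had 1.26, 1.13, 1.07 and 0.867 TPM in differentiated libraries, against 1.79, 2.33, 2.05 and 2.49 TPM in undifferentiated libraries. Neither gene's groups overlapped. MYCN fell by 0.90 (SE 0.11, adjusted p = 2.04e-04) and MYCL by 0.60 (SE 0.115, adjusted p = 0.00253) on the log2(TPM+1) scale, which understates changes at such low levels. As plain ratios of means, undifferentiated cells had 3.29 times the MYCN and 2.0 times the MYCL of differentiated cells. Summed, the 3 activators came to 7.51 ± 0.564 TPM in differentiated and 57.1 ± 1.91 TPM in undifferentiated libraries (SD, n = 4 each), with MYC giving 77.5% of the sum in differentiated and 92.7% in undifferentiated cells. All 3 genes were also called lower among the libraries of lane 8 alone, where no other network gene was called and 37.0% of all genes were.

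The RNA for MAX, the shared partner of the family, moved little. All transcripts of MAX summed to 56.6, 57.8, 59.2 and 65.4 TPM in differentiated libraries, against 68.3, 69.5, 64.6 and 65.9 TPM in undifferentiated libraries. The groups overlapped, since differentiated replicate 24 stood above undifferentiated replicate 19. The sum was called lower, by 0.17 (SE 0.054, adjusted p = 0.0314), but over protein-coding transcripts MAX averaged 45.5 ± 2.87 TPM in differentiated and 43.4 ± 3.67 TPM in undifferentiated libraries, a difference of 0.07 in the other direction with an adjusted p of 0.405. The main coding transcript, MAX-204 (151 codons), averaged 30.1 ± 1.62 TPM in differentiated and 29.5 ± 1.88 TPM in undifferentiated libraries, with a 95% interval of the log2 difference of -0.12 to 0.18. The transcript that stood lower was MAX-209, a short retained-intron form. It had 10.5, 5.85, 11.6 and 16.6 TPM in differentiated libraries, against 20.7, 21.1, 16.8 and 23.1 TPM in undifferentiated libraries (log2 change -0.89, SE 0.259, adjusted p = 0.0340), a call that held in 9 of 17 alternatives. The level of MAX lost its call among the libraries of lane 8 (-0.13, adjusted p = 0.242) and when replicate 21, 22, 23, 17, 18 or 20 was left out (-0.17 to -0.14). Under median-of-ratios scaling and quantile normalization the level of MAX was still called lower. Over 22 limma alternatives, coding sums among them, its change ran from -0.30 to 0.14.

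**Figure D2:**
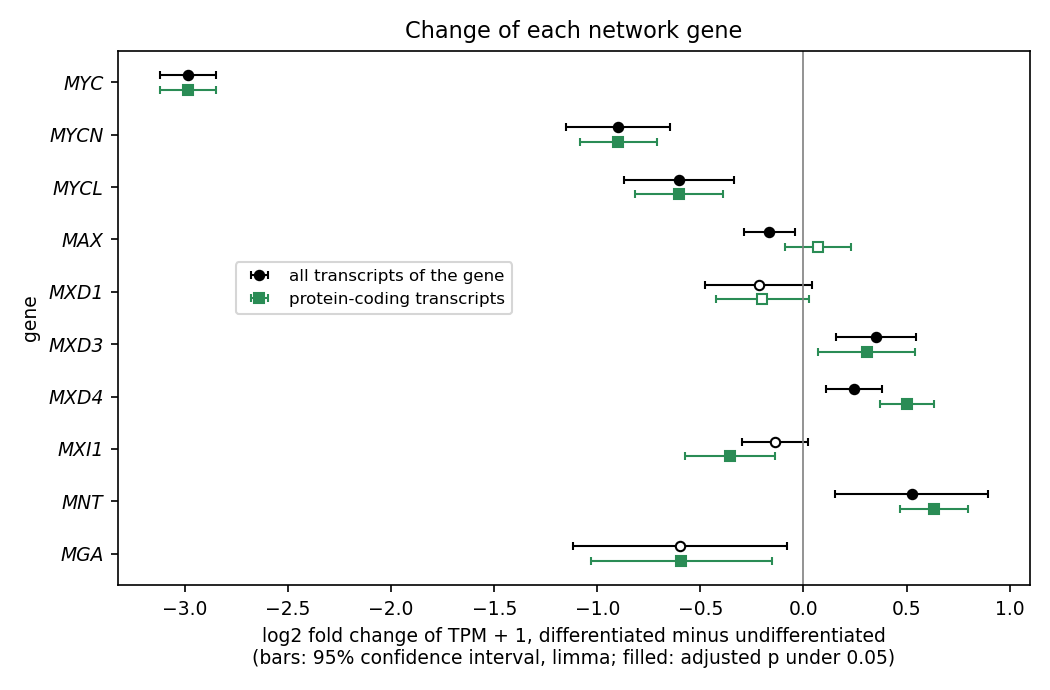
Log2 fold change of TPM + 1 of each network gene, differentiated minus undifferentiated, with 95% limma intervals, over all transcripts (circles) and protein-coding transcripts (squares), filled where the adjusted p is under 0.05. MYC lies near -3, MNT, MXD4 and MXD3 lie above 0, and MAX lies at -0.17 over all transcripts and 0.07 over coding ones.

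Among the repressors, the coding transcripts of MXD4 and MNT rose. MXD4 is a partner of MAX that is known to be expressed in differentiating and resting cells. Its coding transcript MXD4-201 (209 codons, gene on GRCh38 at chr4:2247432-2262294) had 15.4, 16.0, 15.1 and 14.2 TPM in differentiated libraries, against 10.5, 10.7, 10.7 and 9.79 TPM in undifferentiated libraries. The groups were well apart. The means were 15.2 ± 0.753 TPM in differentiated and 10.4 ± 0.415 TPM in undifferentiated libraries, a log2 change of 0.50 (SE 0.066, limma over 53044 transcripts, adjusted p = 7.66e-04), and the call held in all 17 alternatives. The gene's other 4 tested transcripts, of retained-intron, processed and decay types, averaged between 1.39 and 3.89 TPM in differentiated and between 1.65 and 4.15 TPM in undifferentiated libraries, and none was called. Summed over all its transcripts MXD4 averaged 26.5 ± 1.88 TPM in differentiated and 22.2 ± 0.801 TPM in undifferentiated libraries (log2 change 0.24, SE 0.060, adjusted p = 0.00889). The level of MXD4 lost that call under both other scalings and in lane 8 alone (adjusted p up to 0.232).

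MNT, an antagonist of MYC found in nearly all tissues, gave the largest called rise of the network genes. Its coding transcript MNT-201 (582 codons, gene at chr17:2384060-2401118) had 8.34, 7.22, 8.48 and 8.98 TPM in differentiated libraries, against 4.92, 4.93, 5.08 and 4.65 TPM in undifferentiated libraries. The lowest differentiated value stood above the highest undifferentiated one. The log2 change was 0.65 (SE 0.086, adjusted p = 7.99e-04), and its call held in all 17 alternatives. Over all transcripts MNT had 24.0, 13.7, 20.3 and 23.1 TPM in differentiated libraries, against 14.2, 13.1, 12.4 and 14.4 TPM in undifferentiated libraries, and here the groups overlapped, with replicate 22 inside the undifferentiated range (log2 change 0.52, SE 0.162, adjusted p = 0.0256). The level of MNT over all transcripts lost its call in lane 8 alone (0.54, adjusted p = 0.12) and when replicate 21, 23, 24, 18 or 19 was left out (0.44 to 0.51). The 2 retained-intron forms, MNT-205 and MNT-209, held most of the rest and were not called. Transcripts of MNT not annotated as protein coding summed to 15.7, 6.46, 11.8 and 14.1 TPM in differentiated and to 7.31 to 9.58 TPM in undifferentiated libraries. Retained-intron transcripts of all genes took 8.61%, 6.49%, 7.74% and 8.29% of the TPM of the same differentiated libraries and 7.53% to 7.97% of undifferentiated ones, in the same order among differentiated libraries as MNT, and the part of this in the level of MNT was not tested.

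MXD3, a repressor known from S-phase cells, was called higher over all transcripts. It had 27.9, 33.04, 37.5 and 34.5 TPM in differentiated libraries, against 26.9, 25.2, 25.5 and 25.2 TPM in undifferentiated libraries. The groups did not overlap, but differentiated replicate 21 stood only just above undifferentiated replicate 17. The log2 change was 0.35 (SE 0.085, adjusted p = 0.00850). The level of MXD3 lost its call under both other scalings and in lane 8 alone (adjusted p 0.125, 0.158 and 0.0565). Over protein-coding transcripts MXD3 averaged 25.9 ± 4.27 TPM in differentiated and 20.6 ± 0.676 TPM in undifferentiated libraries, with overlapping groups. That sum was called higher by 0.31 (SE 0.105, limma adjusted p = 0.0276), a call also lost under both other scalings and in lane 8 alone. MXD3 shares 2284 bases of its locus with RAB24, a small GTPase gene on the same strand that averaged 24.4 TPM in differentiated and 13.3 TPM in undifferentiated libraries, and overlaps PRELID1 on the other strand, so its reads may in part be theirs. Its 2 most abundant transcripts, MXD3-204 and MXD3-203, were not called. The called ones were the retained-intron form MXD3-206, at 5.52 ± 0.875 TPM in differentiated and 2.33 ± 1.45 TPM in undifferentiated libraries, and MXD3-209, at 3.95 ± 0.763 TPM in differentiated and 2.36 ± 0.425 TPM in undifferentiated libraries. Their calls held in 9 and 6 of 16 alternatives.

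MXD1, the founding MXD gene, which is induced in many differentiating cell types, was the scarcest repressor. It had 3.69, 2.45, 3.23 and 3.34 TPM in differentiated libraries, against 4.28, 3.57, 3.57 and 3.93 TPM in undifferentiated libraries. The groups overlapped and the difference of -0.22 was not called (95% interval -0.48 to 0.04, adjusted p = 0.142). The level of MXD1 was called lower under median-of-ratios scaling (-0.32, adjusted p = 0.0149) and quantile normalization (-0.45, adjusted p = 0.00118). It shares 7888 bases with SNRNP27 on the same strand, which averaged 104 TPM in differentiated and 97.3 TPM in undifferentiated libraries.

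MGA, a very large protein that also has a T-box, varied more between differentiated libraries than any other member. It had 25.3, 10.7, 16.4 and 21.3 TPM in differentiated libraries, against 28.3, 27.9, 24.9 and 27.6 TPM in undifferentiated libraries. Only replicate 21 reached the undifferentiated range, and the log2 difference of -0.60 was not called (95% interval -1.12 to -0.08, adjusted p = 0.0552). Over protein-coding transcripts it averaged 14.4 ± 4.59 TPM in differentiated and 21.4 ± 1.02 TPM in undifferentiated libraries, and that sum fell by 0.59 (SE 0.194, adjusted p = 0.0231). The coding sum of MGA lost that call in lane 8 alone. Its main transcript MGA-201 is 12042 bases long and had 10.9, 2.91, 7.65 and 8.96 TPM in differentiated libraries, against 10.1, 10.8, 10.5 and 11.4 TPM in undifferentiated libraries, with no call. The coding transcript MGA-207, of 14439 bases, had 4.67 TPM in replicate 22 and 2.33 TPM in replicate 23 and was listed at 0 elsewhere. MGA-202, of 11413 bases, was listed at 0 in replicate 22. How reads were divided between these transcripts was not tested. Transcripts of 8 kb or more took 1.61%, 1.06%, 1.34% and 1.49% of the TPM of the differentiated libraries, in the same order as MGA, and 1.28% to 1.33% of that of undifferentiated libraries, and the part of this in the level of MGA was not tested. Over all transcripts the level of MGA was called lower without replicate 22 (-0.38, adjusted p = 0.0445), without replicate 21 (-0.77, adjusted p = 0.0152) and under both other scalings (-0.73 and -0.76).

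**Figure D3:**
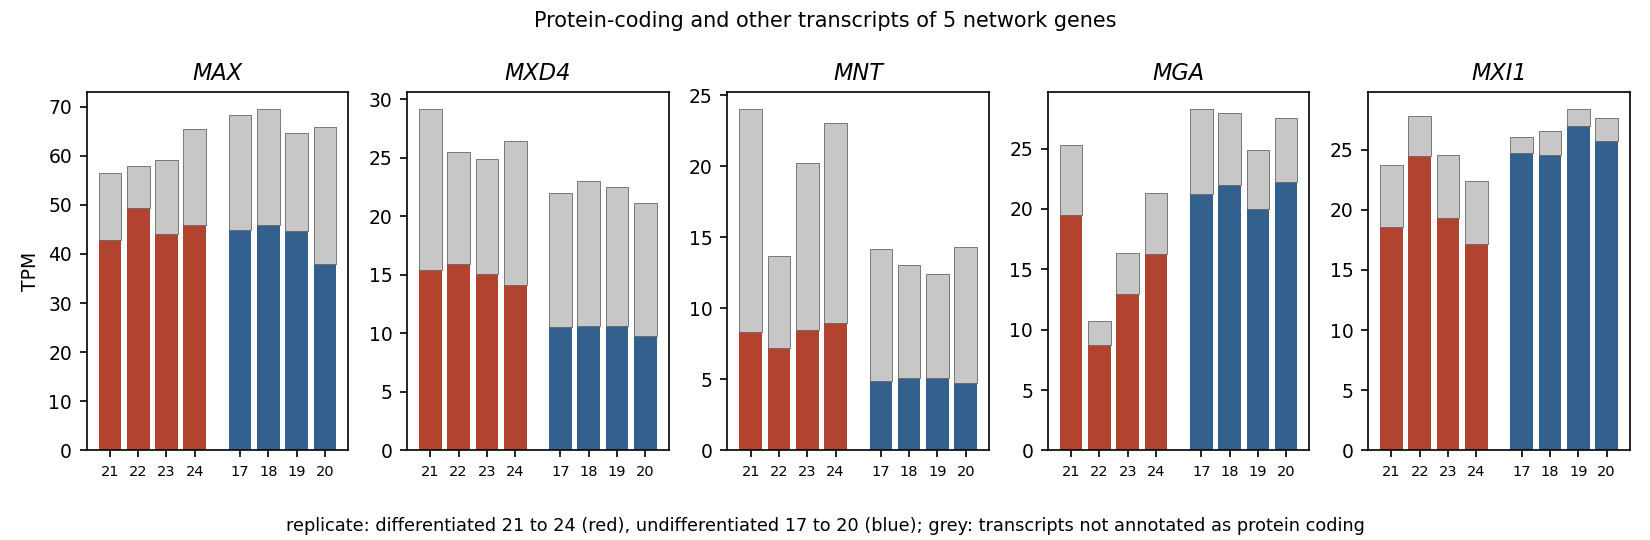
TPM of 5 network genes in each library, differentiated replicates 21 to 24 left of undifferentiated replicates 17 to 20, split into protein-coding transcripts (coloured) and other transcripts (grey). MXD4 and MNT coding levels are higher in every differentiated library, the grey part of MAX is smaller in each of them than in any undifferentiated library, and replicate 22 has the least MGA.

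Transcripts of MXI1, also called MXD2, moved in both directions while its total was not called. All its transcripts summed to 23.7, 27.8, 24.5 and 22.4 TPM in differentiated libraries, against 26.0, 26.6, 28.4 and 27.6 TPM in undifferentiated libraries, overlapping ranges with a difference of -0.14 that was not called (95% interval -0.30 to 0.02, adjusted p = 0.130). The level of MXI1 was called lower without replicate 22 (-0.20, adjusted p = 0.0108). Of its 4 tested transcripts, from a locus at chr10:110207605-110287365, both that start furthest upstream fell. MXI1-202 (295 codons) starts at the first annotated position and had 3.55, 4.602, 4.64 and 4.26 TPM in differentiated libraries, against 7.20, 5.94, 7.51 and 6.91 TPM in undifferentiated libraries. MXI1-203 (182 codons) starts 2.63 kb downstream and had 4.56, 8.20, 5.53 and 3.11 TPM in differentiated libraries, against 9.69, 9.63, 13.9 and 9.92 TPM in undifferentiated libraries. In neither did the groups overlap. The log2 changes were -0.58 (SE 0.108, adjusted p = 0.00447) for MXI1-202 and -0.94 (SE 0.240, adjusted p = 0.0199) for MXI1-203. The level of transcript MXI1-203 lost its call in lane 8 alone (adjusted p = 0.0874) and without undifferentiated replicate 19 (adjusted p = 0.0553), while that of MXI1-202 was called in all 17 alternatives.

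MXI1-201 (228 codons), which starts 18.4 kb downstream of MXI1-202, was not called. It had 10.4, 11.5, 8.37 and 8.88 TPM in differentiated libraries, against 7.22, 8.73, 5.11 and 8.42 TPM in undifferentiated libraries. These ranges overlap, and the difference was 0.38 (95% interval -0.0029 to 0.76, adjusted p = 0.126). MXI1-210, a transcript of 2755 bases annotated with no reading frame that starts 20.0 kb downstream, rose. It had 4.11, 3.11, 4.94 and 4.68 TPM in differentiated libraries, against 1.20, 1.86, 1.31 and 1.54 TPM in undifferentiated libraries (log2 change 1.07, SE 0.152, adjusted p = 0.00114). The coding transcripts of MXI1 summed to 18.5, 24.4, 19.3 and 17.2 TPM in differentiated libraries, against 24.7, 24.5, 27.0 and 25.7 TPM in undifferentiated libraries, and that sum fell by 0.35 (SE 0.097, adjusted p = 0.00978).

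Shares of MXI1 RNA were tested beside the levels. MXI1-203 made up 21.3% in differentiated and 39.6% in undifferentiated cells (adjusted p = 0.0511), and MXI1-202 made up 17.4% in differentiated and 25.4% in undifferentiated cells (adjusted p = 0.0490, under the 10 percentage points also required for a call). MXI1-201 made up 39.8% in differentiated and 27.3% in undifferentiated cells (adjusted p = 0.106). MXI1-210 made up 17.4% in differentiated and 5.45% in undifferentiated cells, a rise of 12.0 percentage points (adjusted p = 0.0210). It was the 1 transcript of a network gene whose share was called. Of all 22951 transcripts tested for their share 2.39% were called, and 1 call is too few to set against that rate. The share of transcript MXI1-210 held its call in 6 of 14 alternatives and lost it in lane 8 alone (adjusted p = 0.235), whereas the level of this transcript was called in all 16 alternatives run for it. At transcript level 12 of 36 tested network transcripts were called, against 29.3% of all transcripts, with 5 higher and 7 lower.

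**Figure D4:**
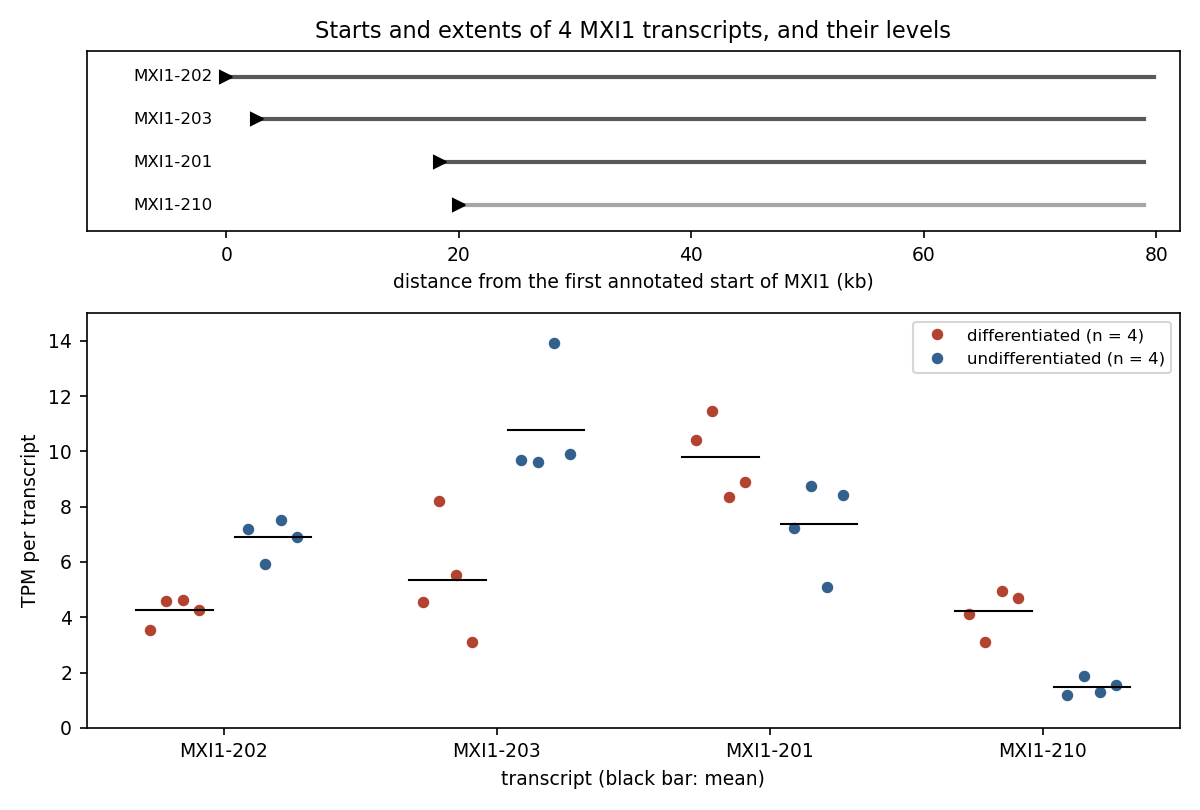
Upper panel, starts (arrowheads) and extents of 4 MXI1 transcripts in kb from the first annotated start, and lower panel, TPM of each transcript in every library with a bar at the mean, differentiated left of undifferentiated. MXI1-202 and MXI1-203 are lower in all differentiated libraries, MXI1-201 overlaps, and MXI1-210 is higher in all of them.

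Set side by side, the levels gave a different order in each state. In differentiated libraries MAX was the most abundant at 59.8 TPM, followed by MXD3, MXD4, MXI1, MNT and MGA, each overlapping its neighbour in range, then by MYC, MXD1, MYCL and MYCN, each apart from the next. In undifferentiated libraries MAX at 67.1 TPM was followed by MYC, then by MGA, MXI1 and MXD3 with overlapping ranges, then by MXD4, MNT and MXD1 apart from one another, and by MYCL and MYCN with overlapping ranges. Over all transcripts MYC thus stood seventh after differentiation, against second without it. Over protein-coding transcripts MYC stood above MAX in undifferentiated libraries, at 51.1 to 55.5 TPM, against 37.9 to 45.9 TPM for MAX. The 6 repressor genes summed to 126 ± 9.15 TPM in differentiated and 120 ± 1.79 TPM in undifferentiated libraries, and over coding transcripts to 86.7 ± 2.55 TPM in differentiated and 86.4 ± 0.344 TPM in undifferentiated libraries (SD, n = 4 each). Over all transcripts the ratio of repressor to activator RNA was 16.9 ± 2.20 in differentiated and 2.09 ± 0.099 in undifferentiated libraries. That of activators to MAX was 0.126 ± 0.017 in differentiated and 0.853 ± 0.049 in undifferentiated libraries. Over coding transcripts the repressor to activator ratio was 11.6 ± 1.09 in differentiated and 1.51 ± 0.052 in undifferentiated libraries. That of activators to MAX was then 0.165 ± 0.015 in differentiated and 1.32 ± 0.11 in undifferentiated libraries, so activator RNA exceeded MAX RNA in the latter. These are ratios of RNA, with no measure of protein.

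The genes that MYC is known to activate were mostly lower. Their list was chosen with earlier results of these data known, so the counts are no independent test. Of 35 listed, 33 were tested, 29 fell, 2 rose and 2 were not called, with a median log2 change of -0.59 against 0.10 over all genes. Of all genes 17.4% were called lower and 33.9% higher. Those with the largest changes were POLR3G, a subunit of RNA polymerase III, at 6.83 ± 0.979 TPM in differentiated and 19.8 ± 1.45 TPM in undifferentiated libraries, and HK2, a hexokinase of glycolysis, at 11.9 ± 1.65 TPM in differentiated and 24.7 ± 0.953 TPM in undifferentiated libraries. GNL3, the nucleolar protein nucleostemin, averaged 111 ± 10.3 TPM in differentiated and 222 ± 10.8 TPM in undifferentiated libraries. NOP16, a ribosome assembly factor, averaged 12.5 ± 1.13 TPM in differentiated and 24.98 ± 1.63 TPM in undifferentiated libraries. The 2 that rose, named after their values were seen, were ODC1, the ornithine decarboxylase of polyamine synthesis and a classical MYC target, at 220 ± 15.6 TPM in differentiated and 161 ± 10.5 TPM in undifferentiated libraries, and SLC3A2, the heavy chain of amino acid transporters, at 54.9 ± 5.15 TPM in differentiated and 44.1 ± 3.40 TPM in undifferentiated libraries. The groups of SLC3A2 overlapped, with 47.4 TPM in differentiated replicate 22 and 48.0 TPM in undifferentiated replicate 18. In lane 8 alone, with lane as a term and under median-of-ratios scaling 1 gene of the list was called higher, and under quantile normalization 2 were. SLC7A5, the light chain that works with SLC3A2, fell to 9.38 TPM in differentiated cells, against 15.8 TPM in undifferentiated cells.

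Of 10 genes that MYC is known to repress, 8 were tested, 6 rose and 0 fell, with a median log2 change of 0.72. Of all genes 33.9% were called higher and 17.4% lower. This list too was chosen with earlier results of these data known. CDKN1A, the p21 inhibitor of cyclin-dependent kinases, had 71.6, 75.8, 76.8 and 75.1 TPM in differentiated libraries, against 17.1, 15.5, 18.7 and 14.9 TPM in undifferentiated libraries (log2 change 2.11, SE 0.071, adjusted p = 1.34e-07). CDKN1B, the related p27, averaged 124 ± 2.16 TPM in differentiated and 63.7 ± 2.03 TPM in undifferentiated libraries. The stress-response genes DDIT3 and GADD45A rose by 1.54 and 0.88. Cell cycle genes moved beside these targets: all 16 G2 and M phase genes tested fell (median -0.78), and among 15 S phase genes 9 fell and 1 rose (median -0.25). Their part in the change of the MYC targets was not tested.

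**Figure D5:**
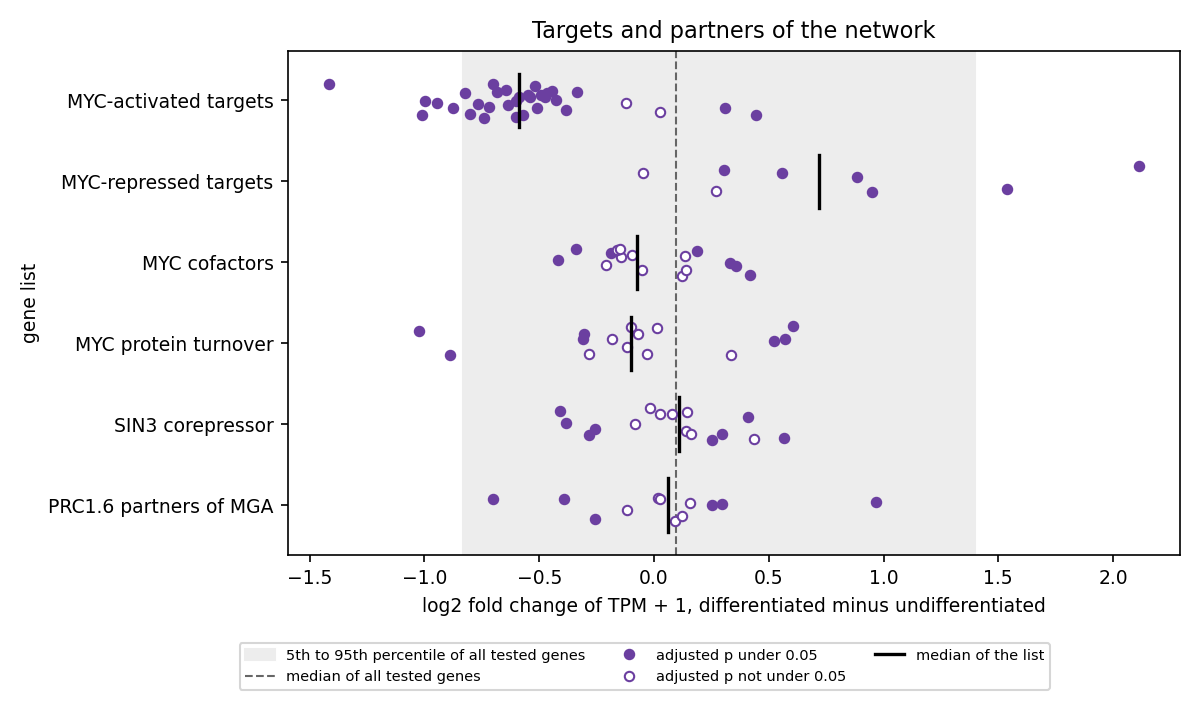
Log2 fold change of TPM + 1, differentiated minus undifferentiated, of each tested gene of 6 lists (points, filled where the adjusted p is under 0.05), with each list's median (bar), the median of all tested genes (dashed line) and their 5th to 95th percentiles (shading, -0.83 to 1.40). The median of MYC-activated targets lies at -0.59 and that of MYC-repressed targets at 0.72, while the other lists have medians between -0.10 and 0.11. All lists were chosen with earlier results of these data known.

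Cofactors and corepressors moved in both directions, as did genes at large. In the TPM used 7 of 16 MYC cofactors, 7 of 15 genes for MYC protein turnover and 8 of 16 SIN3 genes were called. Of all genes 51.3% were called, 33.9% higher and 17.4% lower, so these shares were not far from that of genes at large. Of the 16 MYC cofactors 4 rose and 3 fell (median log2 change -0.08). PAF1, of the elongation complex of that name, rose by 0.42, CDK9, the kinase of P-TEFb, rose by 0.36, MYCBP2, a ubiquitin ligase, fell by 0.42 and RUVBL2, a chromatin ATPase, fell by 0.34. The level of MYCBP2 lost its call in lane 8 alone (-0.34, adjusted p = 0.18), with lane as a term (adjusted p = 0.132) and without undifferentiated replicate 17 or 18 (adjusted p = 0.0612 and 0.0627). It stood at 12.2 TPM in differentiated replicate 22, against 17.7 to 18.0 TPM in the other differentiated libraries. Of 15 genes for MYC protein turnover 3 rose and 4 fell, or 3 and 9 under either other scaling. The mitotic kinases AURKA, which is known to stabilise MYCN protein, and PLK1 fell by 1.03 and 0.89, AURKA to 29.9 ± 2.25 TPM in differentiated cells, against 61.8 ± 0.528 TPM in undifferentiated cells, and both are also in the G2 and M phase list. PPP2R5A, a regulatory subunit of the phosphatase PP2A, and the kinase gene PIM2 rose by 0.61 and 0.57. Of 16 genes of the SIN3 complex, the effector of MXD and MNT proteins, 4 rose and 4 fell (median 0.11, or -0.02 after median-of-ratios scaling and -0.03 after quantile normalization). Its histone-binding subunits moved in opposite directions, RBBP7 to 163 ± 11.5 TPM in differentiated cells, against 109 ± 1.70 TPM in undifferentiated cells, and RBBP4 to 198 ± 15.7 TPM in differentiated cells, against 264 ± 3.62 TPM in undifferentiated cells. SIN3A, the scaffold, averaged 42.4 TPM in differentiated and 40.6 TPM in undifferentiated libraries (adjusted p = 0.916).

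Of 12 PRC1.6 partners of MGA 3 rose and 3 fell, where 51.3% of all genes were called. Among them HDAC1, which rose by 0.25, and HDAC2, which fell by 0.26, are also counted in the SIN3 list. RING1, a ubiquitin ligase of Polycomb complexes, had 59.9, 69.5, 64.9 and 61.4 TPM in differentiated libraries, against 32.7, 32.1, 32.1 and 31.6 TPM in undifferentiated libraries (log2 change 0.97, SE 0.053, adjusted p = 1.84e-06). E2F6, the DNA-binding repressor of the complex, fell to 38.4 ± 4.43 TPM in differentiated cells, against 62.8 ± 3.14 TPM in undifferentiated cells, and CBX3, a reader of methylated histone H3, fell by 0.39. PCGF6, which defines the complex, averaged 13.2 TPM in differentiated and 13.03 TPM in undifferentiated libraries and was not called. Of 10 germline genes known as targets of the complex 3 were tested. MOV10L1, a helicase of the germline piRNA pathway, had 11.6, 8.25, 10.1 and 12.3 TPM in differentiated libraries, against 0.271, 0.223, 0.303 and 0.168 TPM in undifferentiated libraries (log2 change 3.20, SE 0.125, adjusted p = 2.97e-07). TDRKH, of the same pathway, fell by 0.66, STAG3 was not called, and SMC1B and TDRD1 were listed at 0 in every library.

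Related factors and neighbouring genes were also compared. MLX, the partner of MondoA that can also pair with MXD1, MXD4 and MNT, averaged 38.7 ± 1.36 TPM in differentiated and 33.6 ± 0.924 TPM in undifferentiated libraries and was called higher (0.20, adjusted p = 0.00470), a call lost under both other scalings, and MLXIP (MondoA) and MLXIPL were not called. The MondoA targets moved apart, with TXNIP lower by 0.46, a call lost in lane 8 alone, and ARRDC4 higher by 0.73. PVT1, the long noncoding RNA gene next to MYC, had 15.1, 14.04, 14.1 and 12.1 TPM in differentiated libraries, against 11.7, 12.7, 10.9 and 10.9 TPM in undifferentiated libraries. It was thus called higher (0.24, adjusted p = 0.0365) while MYC fell, although its groups overlapped and the call held in 7 of 17 alternatives. DDX1, the neighbour of MYCN, fell to 98.1 ± 3.19 TPM in differentiated cells, against 141.8 ± 0.826 TPM in undifferentiated cells.

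The protein-coding genes whose profiles over the 8 libraries were most like that of MYC were CHGA (chromogranin A), NEUROG2, INSM2, DLK1 and NPY (neuropeptide Y), with root mean square differences of centred log2 values of 0.060 to 0.134 among 10413 genes. CHGA averaged 27.4 ± 2.58 TPM in differentiated and 219.9 ± 9.88 TPM in undifferentiated libraries, and NPY averaged 19.8 ± 2.80 TPM in differentiated and 144 ± 10.3 TPM in undifferentiated libraries. All 5 genes were chosen for their likeness to MYC over the same 8 libraries, so their fall is no separate result. The profiles most like that of MNT were those of CACNG8, ATXN1L, AC009336.2, GLG1 and SKIL (0.035 to 0.060). These 5 were chosen for their likeness to MNT over the same 8 libraries. That replicate 22 was the lowest differentiated library in all of them, as in MNT, is thus no separate result. ATXN1L, for one, had 23.0, 13.1, 17.8 and 21.3 TPM in differentiated libraries, against 12.4, 12.1, 11.7 and 13.1 TPM in undifferentiated libraries.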

How the data were processed

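RNA of 8 SH-SY5Y libraries was compared, 4 differentiated and 4 undifferentiated, grouped by their labels. The authors deposited TPM per Ensembl transcript, made per the submitters' processing notes with FastQC 0.11.2 and Salmon on GRCh37. Not given in the sources used here are the Salmon version, the annotation release and whether strand was used. Salmon divides reads between similar transcripts, so transcripts of a gene and overlapping genes share error. Identifiers were matched without version to GENCODE 29 (GRCh38), 92.8% of 194993, and TPM were summed per gene. Sequences came from the RefSeq promoter table.

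Genes and transcripts with a mean of 1 TPM or more were fitted in R 4.3.3 by limma 3.58.1 (eBayes with trend, group as the only term) on log2(TPM+1), two-sided, and adjusted by Benjamini-Hochberg over all features tested. Shares of a gene's TPM were tested on the arcsine square root scale where both groups of a gene had at least 5 TPM, for mean shares of 10% to 90%, and a call also needed 10 percentage points. Exact permutation tests were run beside them. Python 3.11.15 and pandas 2.3.3 were used for tables. The steps were tested on simulated data.

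Named were all network genes with their transcripts at 1 TPM or more, up to 4 called genes of each list with the largest changes, and the 5 genes most like MYC and most like the called repressor gene with the largest change. Others (ODC1, SLC3A2, SLC7A5, SIN3A, HDAC1, HDAC2, PCGF6, MLXIP, MLXIPL, STAG3, SMC1B, TDRD1, genes overlapping members and the marker genes) were named after their values were seen. The members and lists were chosen with earlier results of these data known. No library held the same values as another. Filters, pseudocounts, scalings, lanes and single libraries were varied.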

Additional observations from a re-analysis of the deposited data

Results flagged for a closer look

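In each result below, 1 of 4 libraries of a group stood far from the nearest other library relative to the range of the group. Of 166 groups examined, 9 (5.42%) did so, and chance gives about 1 in 20. Differentiated replicate 22 accounted for 3 of them. In it MYCBP2 was low at 12.184 TPM, against 17.689 TPM in the nearest differentiated library, GNL3 was low at 95.385 TPM, against 115.51 TPM, and PLK1 was high at 35.525 TPM, against 33.749 TPM. In differentiated replicate 21 the transcript MXD3-209 was low at 2.8114 TPM, against 4.2715 TPM.

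Among undifferentiated libraries, the coding sum of MAX was low in replicate 20 at 37.928 TPM, against 44.667 TPM in the nearest library. MXI1-203 was high in replicate 19 at 13.911 TPM, against 9.9202 TPM. In replicate 17 ING2 was high at 11.359 TPM, against 9.3365 TPM, and CHGA and DLK1 were low at 205.28 and 148.26 TPM, against 222.78 and 166.75 TPM.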

How the results depend on the processing

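The level of MYC (-3.22 to -2.94), the level of MYCN (-1.57 to -0.85) and the level of MYCL (-1.05 to -0.55) kept their direction and call in every limma alternative run, as did the levels of transcripts MXD4-201 (0.38 to 0.54), MNT-201 (0.54 to 0.74), MXI1-202 (-0.70 to -0.52) and MXI1-210 (1.00 to 1.45). No paired analysis was possible because the groups share no replicate numbers. Depth is unknown, so the error of values near 0 cannot be given. Where results moved, the cause was not tested.

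MYC network genes called were 3 in lane 8 alone, of 4 against 2 libraries, and 0, the MYC genes included, with exact permutation tests, whose smallest adjusted p is 0.0576 (8475 of all genes had an unadjusted p under 0.05). The median change of all genes was 0.10 in the TPM used, -0.02 after median-of-ratios scaling and -0.07 after quantile normalization, and the calls were 5791 higher and 2970 lower, 4605 and 4457, and 4173 and 5098.

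In this order (median-of-ratios, quantile), the level of MXD1 was called at -0.32 and -0.45, the level of MXD3 lost its call at 0.22 and 0.20, the level of MXD4 lost its call at 0.12 and 0.0803, and the level of MGA was called at -0.73 and -0.76. The level of MXI1 was called with quantile normalization at -0.30. In lane 8 alone the calls were lost for the level of MAX (-0.13), the level of MXD3 (0.37), the level of MXD4 (0.26) and the level of MNT (0.54), and with lane as a term for the level of MAX (-0.13) and the level of MNT (0.54). The level of MAX also lost its call without an intensity trend (-0.17), but stayed called lower under both other scalings. With a minimum of 5 TPM the level of MGA was called at -0.60.

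Over protein-coding transcripts, the level of MAX turned to 0.0708 and the level of MXI1 (-0.35) and the level of MGA (-0.59) were called. Combinations with coding sums were chosen after seeing the data. With median-of-ratios and quantile scaling of coding sums, the level of MAX was -0.0783 and -0.0811, the level of MXD1 was called at -0.32 and -0.58, the level of MXD3 lost its call at 0.16 and 0.14, the level of MXI1 was called at -0.50 and -0.53 and the level of MGA at -0.74 and -0.77. In lane 8 coding sums gave 0.14 for the level of MAX and no call for the level of MGA. They gave 0.34 without a call for the level of MXD3 and -0.40 with a call for the level of MXI1. Without replicate 22 they gave 0.0316 for the level of MAX, and called -0.45 for the level of MXI1 and -0.39 for the level of MGA.

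Leaving out single libraries, the level of MAX ran from -0.21 to -0.14, without a call in 6 of 8, and the level of MNT from 0.44 to 0.69, without a call in 5 of 8. The level of MXI1 ran from -0.20, called without replicate 22, to -0.098, and the level of MGA without replicate 21 (-0.77) or 22 (-0.38). The level of transcript MAX-204, never called, turned to -0.0438 and -0.0846 under the scalings and -0.0033 without replicate 23, and reached 0.0647 without replicate 18.

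Transcripts changed (level, all transcripts) numbered 15567, against 9197 with a minimum of 5 TPM, 7669 in lane 8 and 9643 with lane as a term. Transcript shares changed (all transcripts tested) numbered 548, against 21 in lane 8, 48 with lane as a term and 145 to 685 without single libraries. Under the scalings MYC-activated targets had 30 lower in both and MYC-repressed targets 6 higher in both, while SIN3 genes had 3 and 1 higher with 5 and 6 lower, and neighbours of the MYC genes, PVT1 among them, had 0 higher.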
